A study of Mus musculus with 3 samples.

Results

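The genes described here encode cytochrome P450 enzymes of families 1 to 4, taken as every gene whose annotated or current symbol is Cyp, a family digit from 1 to 4, 1 lower-case subfamily letter and a number. The rule found 45 genes on 48 rows of the table, among 16390 named genes. Of these, 40 had a value on all 3 arrays, 3 had a value on some of them (Cyp2c55, Cyp2s1 and Cyp4x1), and 2, Cyp2j13 and Cyp4f39, were blank throughout. Another 36 genes that fit the rule in the mouse RefSeq table, such as Cyp2b10, Cyp4a10 and Cyp2d9, matched no named row and were not analysed here. A pseudogene row, Cyp4f41-ps, was kept apart.

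The study hybridised RNA from livers of female C57BL/6 mice to 3 arrays, each read in 2 channels. The groups were wild-type mice 24 h after LPS/GalN, untreated TMX-/- mice, and TMX-/- mice 24 h after LPS/GalN, with 1 array for each, and untreated wild-type liver in the Cy5 channel of every array. LPS/GalN stands for 3 ng of lipopolysaccharide, a bacterial cell wall component, with 10 mg of D-galactosamine, which sensitises hepatocytes to it. TMX is a thioredoxin-related membrane protein of the endoplasmic reticulum, encoded by Tmx1. The labels give neither the ages of the mice, nor the design of the null allele, nor whether 1 mouse or a pool stood behind a channel.

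Cytochrome P450 enzymes are heme proteins that insert an oxygen atom into their substrates. Most members of families 1 to 3 sit in the endoplasmic reticulum of hepatocytes, receive electrons from P450 oxidoreductase, and oxidise drugs, toxins, steroids and fatty acids, while family 4 enzymes mostly hydroxylate the end of fatty acid chains. Inflammation is well known to lower the RNA of many of them in liver. Many mouse genes of these families lie in tandem clusters of close copies, and a probe for one copy can also bind RNA of another.

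All values are log2 ratios to untreated wild-type liver, centred on each array at the median of the 10184 genes that all arrays measured. They are ratios and not levels, so they do not rank the genes by abundance. The files do not state which channel is the numerator. Tmx1 stood at -2.96 and -3.88 on the arrays of untreated and treated TMX-null liver and at 0.59 in treated wild-type liver, so sample over reference is the likely direction. If the reference were the numerator, higher and lower would swap throughout. The base of the logarithm is not stated either, and with natural logarithms every value would be multiplied by 1.44. There were no replicate arrays, so no test was possible and no difference below was set against the variation between mice. The only error at hand is the SD of a single probe, from 81 genes with 2 probes. It was 0.42 in treated wild-type, 0.42 in untreated TMX-null and 0.76 in treated TMX-null liver, and it was 0.67 when treated was set against untreated TMX-null liver. Higher and lower are counted from 2-fold, which is a log2 value of 1 in either direction. In these bulk samples, fewer hepatocytes and less P450 RNA per hepatocyte cannot be told apart.

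Most of the P450 genes were low in TMX-null liver after LPS/GalN. There, 28 of the 41 genes with a value were at least 2-fold lower than in untreated wild-type liver, where 11.7% of all named genes were, and 1 was at least 2-fold higher, where 16.3% of all named genes were. Their median ratio was -1.81, against 0.08 over all named genes. Treated wild-type liver had 3 of 41 genes 2-fold lower (1.65% of all named genes) and 3 higher (6.8%), with a median of -0.06. Untreated TMX-null liver had 0 of 42 lower (0.793%) and 2 higher (4.97%), with a median of -0.12. The arrays differed in spread, with SDs over genes of 0.48, 0.40 and 1.03 in the order wild-type treated, TMX-null untreated and TMX-null treated. With the spreads made equal, treated TMX-null liver had 24 genes lower (4.82% of all named genes under the same scaling) and 0 higher (6.41%). Treated wild-type liver then had 5 lower (3.98%) and 3 higher (11.2%), and untreated TMX-null liver 1 lower (4.33%) and 2 higher (10.3%). Ranks do not change with this scaling, but they do depend on error relative to the spread. The SD of a single probe was 0.42 in treated wild-type and in untreated TMX-null liver, near the SDs over genes of 0.48 and 0.40. In treated TMX-null liver it was 0.76, beside 1.03. The median P450 gene lay at percentile 3.70 of all named genes in treated TMX-null liver, at percentile 40.1 in treated wild-type liver and at percentile 34.1 in TMX-null liver without treatment. The lowest 10% of the array held 28 of the 41 genes in treated TMX-null liver, 8 of 41 in treated wild-type liver and 6 of 42 in untreated TMX-null liver.

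**Figure D1:**
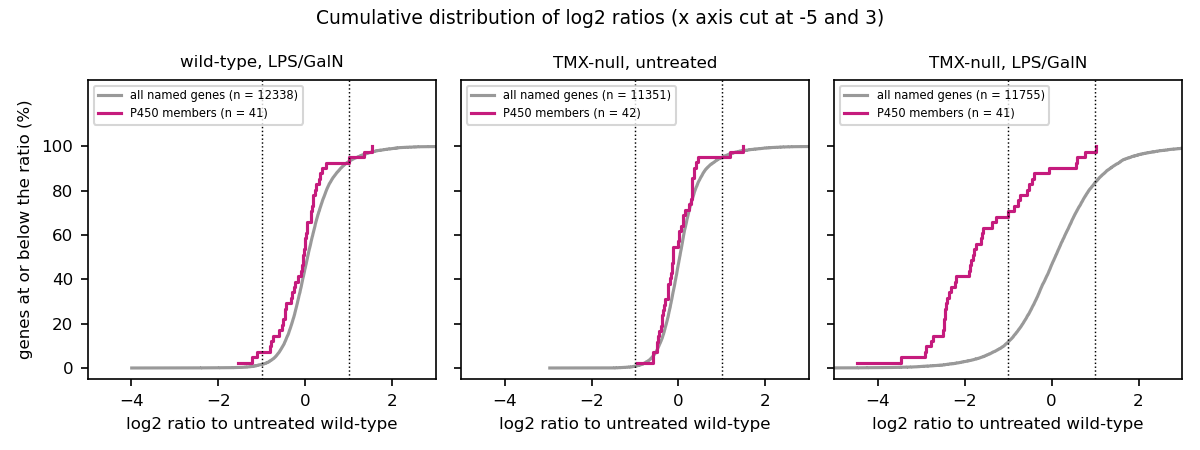
Cumulative share of genes (y axis, percent) at or below each log2 ratio to untreated wild-type liver (x axis), for the P450 genes and for all named genes on each of the 3 arrays; dotted lines mark 2-fold. The P450 curve lies far to the left of the curve of all genes in treated TMX-null liver, where 28 of 41 genes are below -1, and near it on the other arrays.

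Family 1 holds the enzymes that the aryl hydrocarbon receptor induces, and its 3 genes differed from each other. Cyp1a2, a hepatocyte enzyme that oxidises aromatic amines and caffeine, stood at 0.25 in treated wild-type, -0.25 in untreated TMX-null and -3.47 in treated TMX-null liver. It was thus low in treated TMX-null liver alone, and treated TMX-null liver was 13.1-fold below treated wild-type liver. Cyp1a1, its neighbour, which is scarce in uninduced liver and oxidises polycyclic hydrocarbons, stood at -0.51, -0.14 and -0.56 in the same order. Its values in the treated livers of both genotypes differed by less than the SD of a single probe. Cyp1b1, which is expressed mostly outside hepatocytes, stood at 0.31, 1.18 and -0.40, and was 1 of the 2 members that were 2-fold higher in untreated TMX-null liver. The other was Cyp2s1, an enzyme of epithelia outside the liver, which stood at 1.47 there and was blank on the other arrays.

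Cyp2e1, the ethanol-oxidising enzyme that also activates paracetamol and is concentrated around the central vein, was the lowest member in treated wild-type (-1.54), untreated TMX-null (-0.96) and treated TMX-null liver (-4.48). The last value is a 22.3-fold difference and ranked as number 10 from the lowest of 11755 named genes. Cyp1a2 followed at -3.47, and the gap between them was smaller than 1.08, the SD of a difference between genes measured by 1 probe each on that array. After them came Cyp3a44 (-2.92), Cyp4f14 (-2.88), Cyp2c70 (-2.77) and Cyp2c40 (-2.72), neighbours that do not differ beyond this error. On the other arrays the next lowest were Cyp2b9 (-1.22, treated wild-type) and Cyp2f2 (-0.59, untreated TMX-null). Their gaps to Cyp2e1 were also below the SD of such a difference, 0.60 on each array. The upstream sequence of Cyp2e1 is shown because the gene had the lowest value on every array, though not beyond this error. It covers the 250 bases before the start site in the RefSeq promoter table (GRCm38.p6), with a TATAAA box in capitals that begins at position -31 from the start site.
Cyp2e1 (chr7:140763569-140763818, plus strand): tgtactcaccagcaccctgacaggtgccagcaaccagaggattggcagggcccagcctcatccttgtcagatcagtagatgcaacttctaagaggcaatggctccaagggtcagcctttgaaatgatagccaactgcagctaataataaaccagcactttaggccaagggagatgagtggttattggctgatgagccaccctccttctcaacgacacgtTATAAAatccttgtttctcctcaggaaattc

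**Figure D2:**
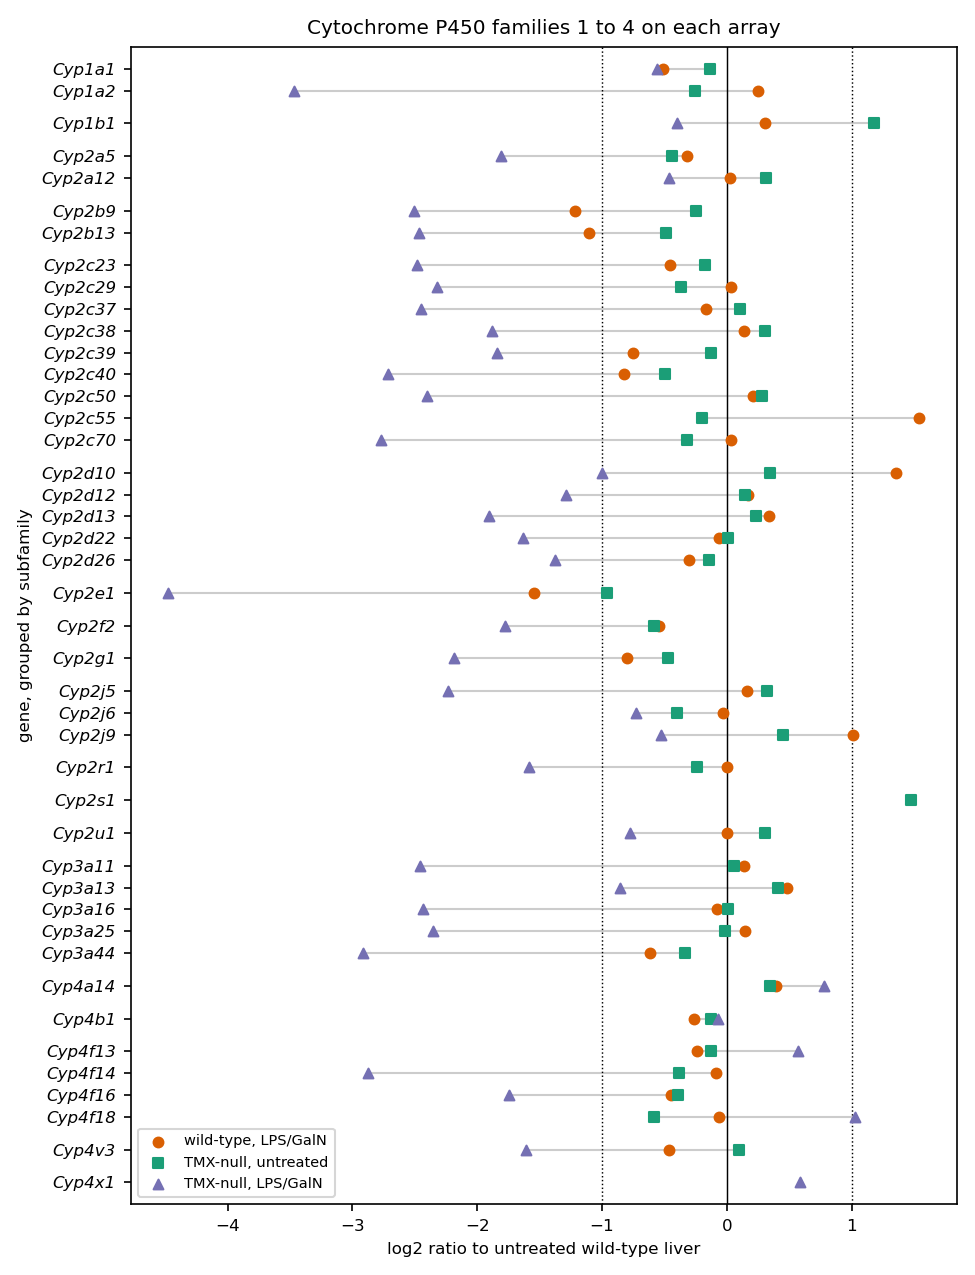
Log2 ratio to untreated wild-type liver (x axis) of each of the 43 P450 genes with a value (y axis, grouped by subfamily), with 1 point for each array and a line joining the lowest and highest; dotted lines mark 2-fold. Treated TMX-null liver is farthest left for most genes of families 2 and 3, from Cyp2e1 at -4.48, and is to the right for Cyp4f18 at 1.02.

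The Cyp2c enzymes, which oxidise drugs, retinoids and arachidonic acid, were low as a whole subfamily in treated TMX-null liver. All 8 Cyp2c genes with a value there were 2-fold lower (11.7% of all named genes), between -2.77 and -1.84, with a median of -2.42. Cyp2c70, the enzyme that makes muricholic acids in mice, stood at 0.03 in treated wild-type, -0.32 in untreated TMX-null and -2.77 in treated TMX-null liver. Cyp2c29, a drug-inducible enzyme, stood at 0.03, -0.36 and -2.32, Cyp2c37 at -0.17, 0.11 and -2.45, and Cyp2c50 at 0.21, 0.28 and -2.40. Cyp2c38 stood at 0.14, 0.30 and -1.89. These 5 genes were within the SD of a single probe of the reference both in treated wild-type and in untreated TMX-null liver. A further 3 were also below it in treated wild-type liver, though by less than 2-fold. Cyp2c40 stood at -0.82, -0.49 and -2.72 in the same order of arrays, and Cyp2c39, a retinoic acid hydroxylase, at -0.75, -0.12 and -1.84. Cyp2c23, an arachidonic acid epoxygenase annotated under its older name Cyp2c44, stood at -0.46, -0.18 and -2.48. Cyp2c55, inducible through the xenobiotic receptors CAR and PXR, was the highest member in treated wild-type liver at 1.54. It stood at -0.20 in untreated TMX-null liver and was blank in treated TMX-null liver.

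The Cyp3a enzymes, the main drug-oxidising P450s, were as low as the Cyp2c group in treated TMX-null liver, with a median of -2.44. There 4 of 5 genes were 2-fold lower, where 11.7% of all named genes were. Cyp3a11, the leading drug-metabolising member in mouse liver, stood at 0.13 in treated wild-type, 0.06 in untreated TMX-null and -2.46 in treated TMX-null liver. Cyp3a25 stood at 0.15, -0.02 and -2.35, and Cyp3a16 at -0.08, 0.01 and -2.44. Cyp3a44 was lower on each array, at -0.62, -0.33 and -2.92. Cyp3a13, which lies apart from the cluster of the other 4 genes, stood at 0.48, 0.41 and -0.86 and did not reach 2-fold. The spread among the 4 genes of the cluster in treated TMX-null liver, from -2.92 to -2.35, was smaller than the SD of a single probe.

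The bases upstream of 3 of these neighbours are shown because the genes had close values and are close copies. Global alignment gave an identity of 92.9% between Cyp3a16 and Cyp3a44, 76.2% between Cyp3a11 and Cyp3a16, and 71.7% between Cyp3a11 and Cyp3a44 over these 250 bases. Cyp3a25, the remaining gene of the cluster, is not shown. Its identity to Cyp3a11 was 52.7%, yet their values in treated TMX-null liver differed by only 0.11. Capitals mark TATAAA and CAAAGTCCA, a sequence bound by the hepatocyte factor HNF4A. CAAAGTCCA was present in Cyp3a11 and Cyp3a16 and absent from this stretch of Cyp3a44.
Cyp3a11 (chr5:145879855-145880104, minus strand): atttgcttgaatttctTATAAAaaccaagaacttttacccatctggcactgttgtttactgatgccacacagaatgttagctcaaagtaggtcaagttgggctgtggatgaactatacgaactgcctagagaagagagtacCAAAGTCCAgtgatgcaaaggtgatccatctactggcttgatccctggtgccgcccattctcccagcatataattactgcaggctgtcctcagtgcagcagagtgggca
Cyp3a16 (chr5:145469724-145469973, minus strand): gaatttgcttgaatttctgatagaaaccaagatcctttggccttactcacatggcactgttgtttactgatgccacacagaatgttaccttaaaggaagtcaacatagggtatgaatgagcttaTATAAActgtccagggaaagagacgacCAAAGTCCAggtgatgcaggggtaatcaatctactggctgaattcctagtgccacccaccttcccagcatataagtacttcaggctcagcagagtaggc
Cyp3a44 (chr5:145805875-145806124, minus strand): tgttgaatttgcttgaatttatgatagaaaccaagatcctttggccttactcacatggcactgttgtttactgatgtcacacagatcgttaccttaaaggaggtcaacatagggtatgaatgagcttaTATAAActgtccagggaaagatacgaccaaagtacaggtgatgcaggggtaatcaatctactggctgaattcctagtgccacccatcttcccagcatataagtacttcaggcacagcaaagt

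The Cyp2b genes were low in the treated livers of both genotypes. Cyp2b9, an enzyme that is more abundant in female than in male mouse liver, stood at -1.22 in treated wild-type, -0.25 in untreated TMX-null and -2.51 in treated TMX-null liver. Cyp2b13, also female-biased, stood at -1.11, -0.49 and -2.47. The 3 rows of Cyp2b13 were close to each other on each array. They gave -0.99, -1.16 and -1.18 in treated wild-type, -0.39, -0.57 and -0.50 in untreated TMX-null, and -2.65, -2.42 and -2.33 in treated TMX-null liver. Cyp2b9 and Cyp2b13 together with Cyp2e1 were the 3 members that were 2-fold lower in treated wild-type liver. A list of female-biased P450s had 5 measured genes (Cyp2b9, Cyp2b13, Cyp2c40, Cyp3a16 and Cyp3a44). All 5 were below 0 in treated wild-type liver, with a median of -0.82. In treated TMX-null liver all 5 were 2-fold lower (11.7% of all named genes), with a median of -2.51. In treated wild-type liver 23 of all 41 P450 genes and 45.5% of all named genes were below 0. Cyp2u1, the single measured gene of the male-biased list and a hydroxylase of long-chain fatty acids, stood at 0.00, 0.31 and -0.77.

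The sequences upstream of the Cyp2b start sites are shown because the genes are near-identical copies. They were 99.2% identical, the highest of the 44 pairs of measured genes within a subfamily, and the probes may not separate the transcripts. Capitals mark TTGCNNAA, a sequence bound by C/EBP factors, which begins at position -180 in both.
Cyp2b9 (chr7:26173159-26173408, plus strand): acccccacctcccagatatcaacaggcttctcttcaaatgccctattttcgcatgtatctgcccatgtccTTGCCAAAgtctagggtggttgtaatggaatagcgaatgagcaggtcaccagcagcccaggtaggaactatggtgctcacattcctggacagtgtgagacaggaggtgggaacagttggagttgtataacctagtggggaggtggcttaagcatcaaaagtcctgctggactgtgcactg
Cyp2b13 (chr7:26061245-26061494, plus strand): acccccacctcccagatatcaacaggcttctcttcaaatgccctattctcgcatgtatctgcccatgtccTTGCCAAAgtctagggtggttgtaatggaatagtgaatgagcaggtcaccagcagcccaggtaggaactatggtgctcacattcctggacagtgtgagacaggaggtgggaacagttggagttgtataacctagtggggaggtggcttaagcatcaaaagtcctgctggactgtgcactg

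The remaining genes of family 2 differed more among themselves. Of the 5 Cyp2d genes, whose human relative oxidises many antidepressants and opioids, 4 were 2-fold lower in treated TMX-null liver. The share over all named genes was 11.7% there. Cyp2d13 stood at 0.34, 0.23 and -1.90 in treated wild-type, untreated TMX-null and treated TMX-null liver, Cyp2d22 at -0.06, 0.01 and -1.63, Cyp2d26 at -0.30, -0.14 and -1.38, and Cyp2d12 at 0.17, 0.15 and -1.29. These 4 genes were within the SD of a single probe of the reference in the other livers. Cyp2d10 stood at 1.36, 0.35 and -0.9995, so it passed 2-fold higher in treated wild-type liver and stopped just short of 2-fold lower in treated TMX-null liver. Cyp2a5, the coumarin hydroxylase, stood at -0.32, -0.44 and -1.81, while its relative Cyp2a12, a steroid hydroxylase, stood at 0.02, 0.31 and -0.46. Cyp2f2, which oxidises naphthalene in lung and liver, stood at -0.55, -0.59 and -1.78. Cyp2g1, best known from olfactory mucosa, stood at -0.80, -0.47 and -2.19. Cyp2r1, a vitamin D hydroxylase of liver, stood at -0.00, -0.24 and -1.58. Of the Cyp2j genes, which encode arachidonic acid epoxygenases, Cyp2j5 stood at 0.17, 0.32 and -2.23, Cyp2j6 at -0.03, -0.40 and -0.73, and Cyp2j9 at 1.01, 0.45 and -0.53. So 1 of the 3 Cyp2j genes was 2-fold lower in treated TMX-null liver, and Cyp2j9 reached 2-fold higher in treated wild-type liver by a margin far below the SD of a single probe.

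Family 4 was split. Its median in treated TMX-null liver was 0.25 over 8 genes, against -1.89 in family 2 (25 genes) and -2.44 in family 3 (5 genes). In family 4, 3 genes were 2-fold lower there (11.7% of all named genes) and 1 was higher (16.3%). Cyp4f14, a hepatic enzyme that inactivates leukotriene B4, stood at -0.09 in treated wild-type, -0.39 in untreated TMX-null and -2.88 in treated TMX-null liver. Cyp4v3, a fatty acid hydroxylase, stood at -0.47, 0.10 and -1.61. Cyp4f16 averaged -0.45, -0.39 and -1.74, but its 2 rows gave -2.96 and -0.53 in treated TMX-null liver, so its value rests on which row is taken. Cyp4a14, a target of the fatty acid sensor PPARA, stood at 0.39, 0.35 and 0.78, and was the only gene of the PPARA target list with a value. Cyp4b1, Cyp4f13 and Cyp4x1 did not reach 2-fold on any array. Cyp4b1 stood at -0.26, -0.13 and -0.07, Cyp4f13 at -0.24, -0.12 and 0.57, and Cyp4x1, measured in treated TMX-null liver alone, at 0.58. Cyp4f18, the leukotriene hydroxylase of neutrophils, was the highest member in treated TMX-null liver. It stood at -0.06, -0.58 and 1.02, and at 0.96 on the last array with the deposited centring. Of the neutrophil markers, 3 of 4 with a value were 2-fold higher in that liver (16.3% of all named genes), led by S100a9 (4.45), while Ly6g stood at -2.50. Their part in the Cyp4f18 value was not tested.

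Treated against untreated TMX-null liver gives the response without TMX, in which the reference cancels if its RNA was one preparation. It rests on the same single array of treated TMX-null liver as the ratios above. So do the comparison of the treated livers and the difference of responses below, so none of them is an independent repeat. In the TMX-null response 32 of 40 P450 genes were at least 2-fold lower (12.0% of all named genes) and 1 was higher (11.3%). The median was -1.71. With equal spreads 22 were lower (8.08%) and 1 higher (6.52%), and the median was -1.04. Cyp2e1 (-3.52) and Cyp1a2 (-3.21) were lowest, followed by Cyp2c50 (-2.68), Cyp3a44 (-2.58), Cyp2c37 (-2.56) and Cyp2j5 (-2.55). All 8 Cyp2c, 5 of 5 Cyp2d and 5 of 5 Cyp3a genes passed 2-fold. Cyp1b1, the gene that was high in untreated TMX-null liver, stood at -1.59. The 7 genes within 2-fold were Cyp1a1 (-0.42), Cyp2a12 (-0.78), Cyp2j6 (-0.33), Cyp2j9 (-0.98), Cyp4a14 (0.43), Cyp4b1 (0.06) and Cyp4f13 (0.69), and Cyp4f18 stood at 1.61.

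Between the treated livers, TMX-null was lower than wild-type in 31 of 40 genes (10.4% of all named genes) and higher in 1 (10.1%), with a median of -1.51. With equal spreads 16 genes were lower (6.07%), 0 were higher (4.51%), and the median was -0.82. Cyp1a2 had the largest difference at -3.71. Cyp2e1 (-2.93), Cyp2c70 (-2.80), Cyp4f14 (-2.79), Cyp2c50 (-2.61) and Cyp3a11 (-2.60) followed. Cyp2b9 (-1.29) and Cyp2b13 (-1.36) differed less. These genes and Cyp2e1 were 2-fold lower in treated wild-type liver as well. The response in TMX-null liver minus that in wild-type liver was 2-fold or more below 0 in 27 of 40 genes (11.6% of all named genes) and above it in 1 (9.81%). This difference ran from -3.46 for Cyp1a2 to 1.67 for Cyp4f18, with a median of -1.59. With equal spreads 16 genes were lower (12.7%), 1 was higher (10.5%), and the median was -0.73. It was within 2-fold for Cyp2b13 (-0.87), Cyp2c39 (-0.97), Cyp2d26 (-0.94), Cyp2f2 (-0.64) and Cyp2g1 (-0.92), among 12 genes.

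**Figure D3:**
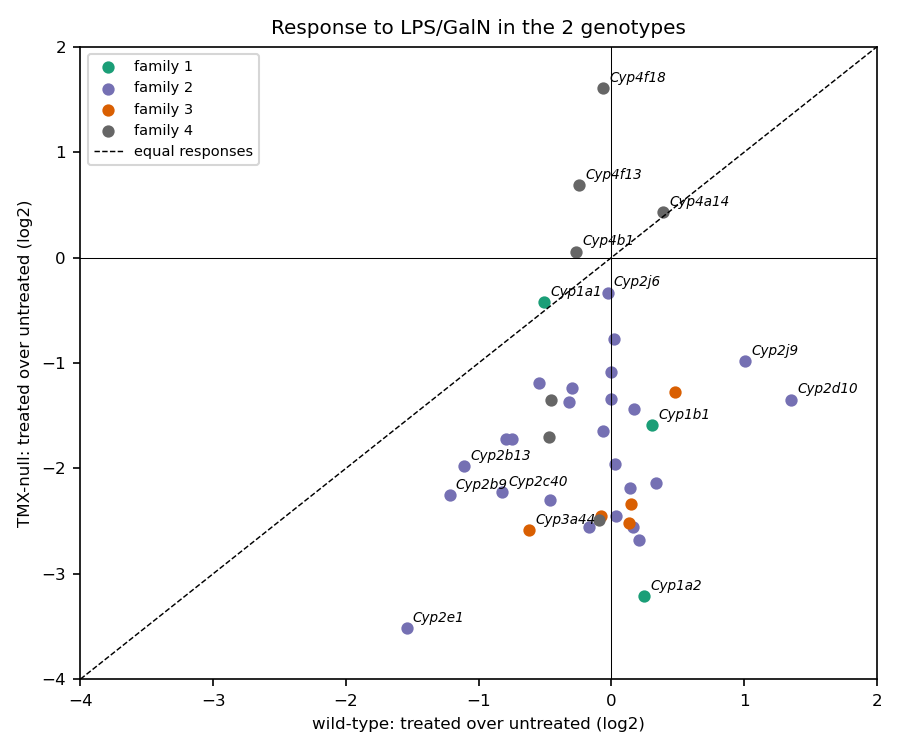
Response to LPS/GalN of the 40 P450 genes measured on all 3 arrays, as the log2 ratio of treated to untreated liver in wild-type (x axis) and TMX-null mice (y axis), coloured by family; the dashed line marks equal responses. Most genes lie below the dashed line, with Cyp1a2 (0.25 and -3.21) far below it and Cyp4f18 (-0.06 and 1.61) above it.

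In wild-type liver, the few responses changed when untreated TMX-null liver took the place of the reference. Against it, 0 of 41 genes in treated wild-type liver were 2-fold lower (2.39% of all named genes) and 2 were higher (2.23%), Cyp2c55 (1.74) and Cyp2d10 (1.01). Cyp2b9 stood at -0.97, Cyp2b13 at -0.62, Cyp2e1 at -0.58 and Cyp2j9 at 0.56 in that comparison. The ratios of treated wild-type and untreated TMX-null liver share the reference channel.

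Gene clusters differed in how alike their members were in treated TMX-null liver. The 7 measured genes of the Cyp2c cluster ran from -2.77 to -1.84 and the 4 of the Cyp3a cluster from -2.92 to -2.35. The 6 of the mixed Cyp2a, Cyp2b, Cyp2f and Cyp2g cluster ran from -2.51 to -0.46. The Cyp4f cluster ran from -2.88 to 0.57, and the cluster that holds Cyp4x1, Cyp4a14 and Cyp4b1 from -0.07 to 0.78. Among the 44 pairs within a subfamily, 7 had upstream sequences at least 70% identical, and the median difference between their values was 0.54 in treated wild-type, 0.24 in untreated TMX-null and 0.05 in treated TMX-null liver. For the other 37 pairs it was 0.34, 0.37 and 0.56 in the same order. The closer pairs thus had the smaller median difference in both TMX-null livers and the larger one in treated wild-type liver. All these medians were below the SD of a difference between genes measured by 1 probe each. That SD was 0.60, 0.60 and 1.08 in the same order of arrays. These pairs share genes and may share probe binding, so the comparison is a description.

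Upstream sequences were at hand for 33 of the 40 genes measured on all arrays, and 5 short motifs were searched on both strands. CAAAGTCCA was present upstream of 4 of the 33 genes (12.1%), against 0.381% of 27025 mouse genes. These were Cyp2c40, Cyp2c70, Cyp3a11 and Cyp3a16, which are members of 2 subfamilies and not independent of each other. TATAAA was present in 42.4%, against 13.0%, and TTGCNNAA in 21.2%, against 9.55%. These genes are not independent either, since TATAAA was counted in Cyp3a11, Cyp3a16 and Cyp3a44, and TTGCNNAA in Cyp2b9 and Cyp2b13. In Cyp2j5, Cyp3a11, Cyp3a16 and Cyp3a44 TATAAA began at positions -128, -234, -126 and -122, far from the start site. TTCNNNGAA, a STAT site, was found in 6.06%, against 7.18%, and GCGTG, the core bound by the aryl hydrocarbon receptor, in 18.2%, against 28.2%. GCGTG was present upstream of Cyp1a1 and Cyp1b1 and not in this window of Cyp1a2. No match of TATAAA, TTGCNNAA or CAAAGTCCA overlapped another of these 3.

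Genes that serve the P450 enzymes were in part lower in treated TMX-null liver. Of 7 electron donors and partners, 3 were 2-fold lower (11.7% of all named genes) and 0 higher (16.3%), with a median of -0.87. Por, the oxidoreductase that supplies the electrons, stood at -0.45 in treated wild-type, -0.19 in untreated TMX-null and -0.70 in treated TMX-null liver. Cyb5a, cytochrome b5, stood at -0.17, -0.15 and -1.58, and its reductase Cyb5r3 at 0.01, -0.42 and -1.59. Pgrmc1, a heme-binding partner, stood at -1.28 in treated TMX-null liver, and Ephx1, the epoxide hydrolase that acts on P450 products, at -0.58.

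Of 7 heme synthesis genes, 3 were 2-fold lower in treated TMX-null liver (11.7% of all named genes) and 0 higher (16.3%), with a median of -0.77. Alas1, the rate-limiting enzyme, stood at -1.75 in treated wild-type, 0.16 in untreated TMX-null and -1.16 in treated TMX-null liver, and thus was low in both treated livers. Alad stood at -1.43 and Urod at -1.50 in treated TMX-null liver, and Cpox was the highest of the list at -0.40. Hmox1, the inducible heme-degrading oxygenase, stood at 0.16, 0.21 and 3.31, and was the only 1 of 4 heme breakdown genes that reached 2-fold in treated TMX-null liver. Blvrb was the lowest of these at -0.18.

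Of 13 regulators, 4 were 2-fold lower in treated TMX-null liver (11.7% of all named genes) and 0 higher (16.3%), with a median of -0.28. Cebpa, a hepatocyte transcription factor, stood at -1.11 in treated wild-type, -0.65 in untreated TMX-null and -1.89 in treated TMX-null liver. Rxra, the partner of the xenobiotic and fatty acid receptors, stood at -0.22, -0.03 and -1.56. Nr0b2, a repressor induced by bile acids, stood at 0.98, 0.45 and -1.29, and Nr1i2, which encodes PXR, at 0.45, -0.59 and -1.002. Nr1i2 thus reached 2-fold lower by a margin far below the SD of a single probe. Nr1i3, which encodes CAR, was -0.22, Hnf4a -0.28 and Ahr 0.58 in treated TMX-null liver, and Cebpb was the highest at 0.62. Ppara stood at 1.09 in untreated TMX-null liver and 0.03 in treated TMX-null liver. The 4 measured CAR and PXR target genes (Cyp2c29, Cyp2c37, Cyp2c50 and Cyp3a11) had a median of -2.42 there.

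P450 genes of other families were also low in treated TMX-null liver, with a median of -2.40. Of 13 genes, 7 were at least 2-fold lower (11.7% of all named genes) and 1 was higher (16.3%). They ranged from Cyp7a1 (-4.23), which starts bile acid synthesis, to Cyp24a1 (1.61), which breaks down vitamin D. Also 2-fold lower were Cyp8b1 (-4.04), Cyp26a1 (-3.19), Cyp7b1 (-3.06), Cyp17a1 (-3.03), Cyp51 (-2.50) and Cyp27a1 (-2.40). In treated wild-type liver 3 of 12 were 2-fold lower as well (1.65%) and 1 was higher (6.8%), with a median of 0.13. The lower ones there were Cyp17a1 (-2.58), Cyp8b1 (-2.44) and Cyp7a1 (-1.64). Cyp17a1 differed by -0.45 between the treated livers.

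Other hepatocyte genes were low in the same liver. In treated TMX-null liver 11.7% of all named genes were 2-fold lower and 16.3% higher. Of 10 hepatocyte markers with a value, 8 were 2-fold lower and 0 higher there. These markers had a median of -1.62 and a range from Cps1 (-2.39) to Apob (-0.15). Their median was -0.32 in treated wild-type and -0.40 in untreated TMX-null liver. Against untreated TMX-null liver their median was -0.94, where that of the P450 genes was -1.71. Against treated wild-type liver their median was -0.91, and that of the P450 genes was -1.51. Genes expressed around the central vein other than P450s had a median of -2.98, with 4 of 6 lower, from Oat (-4.67) to Lect2 (-0.46). Periportal genes had a median of -2.03, with 5 of 6 lower, from Asl (-3.50) to Hsd17b13 (-0.35).

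Marker lists of other cells varied in treated TMX-null liver, where 16.3% of all named genes were 2-fold higher. Of 12 macrophage markers, 10 were 2-fold higher, with a range from Csf1r (-0.19) to Marco (4.10). In treated wild-type liver 9 were (6.8% of all named genes), and in untreated TMX-null liver 4 were (4.97%). All 5 monocyte markers with a value in treated TMX-null liver were 2-fold higher there, from Plac8 (2.16) to Chil3 (8.10). In the same liver the medians were 0.79 for T and NK cell, 0.56 for endothelial, 1.23 for stellate and 0.34 for cholangiocyte markers, with 3 of 7, 2 of 4, 3 of 5 and 1 of 5 genes 2-fold higher. The part of these cells in the P450 values was not tested.

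**Figure D4:**
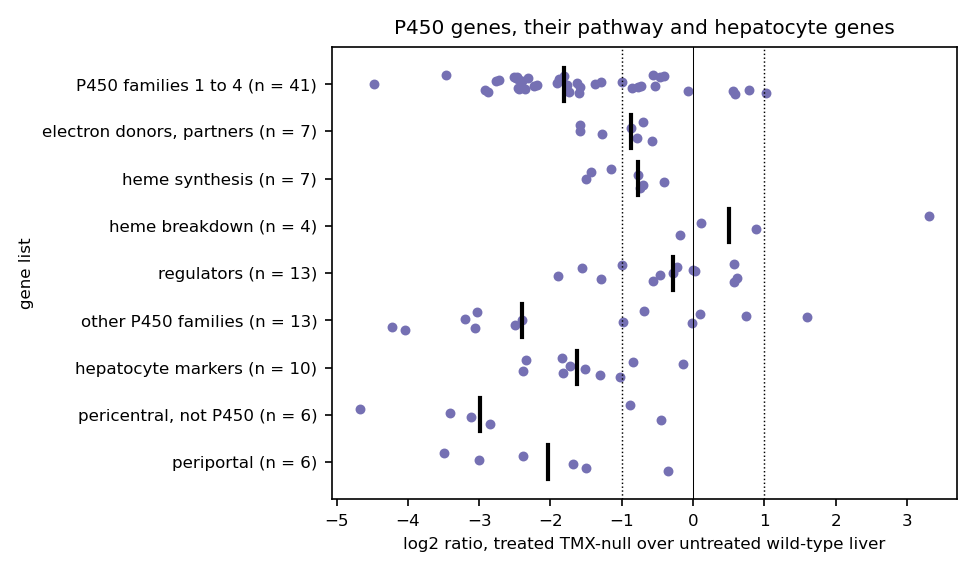
Log2 ratio of treated TMX-null to untreated wild-type liver (x axis) for single genes (points) of the P450 families, their partners, regulators and other hepatocyte lists (y axis); black bars are medians and dotted lines mark 2-fold. The P450 median of -1.81 lies near that of hepatocyte markers (-1.62). It lies below those of electron donors (-0.87), heme synthesis (-0.77), regulators (-0.28) and heme breakdown (0.50). Lower medians belong to pericentral genes (-2.98), other P450 families (-2.40) and periportal genes (-2.03).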

How the data were processed

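The authors deposited 1 table of log ratios from 2-colour arrays, whose base is not stated and which are read here as log2. The sources used here give neither the background correction, nor the normalization, numerator or rule for blanks. Per the labels' protocols, RNA was amplified as amino allyl RNA and coupled to Cy5 (untreated wild-type) or Cy3 (sample). Of 23473 rows, 16631 were named by 1 symbol in GEO's platform annotation and 6842 were not named here. Symbols were updated through synonyms of the mouse RefSeq table (GRCm38.p6), which renamed 3947 rows, 3 of them P450 genes. Rows of a gene were averaged, blanks were kept as missing, and each array was centred on its median over genes measured on all 3 (-0.04, -0.03 and -0.07 before). Comparisons used every gene with the values needed. The arrays correlated with r of 0.48, 0.54 and 0.40 over rows, and all share the reference.

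All P450 genes with a value are named. Of other genes, the rule allows Tmx1 and, in each pathway or marker list, the highest, the lowest and any past 2-fold in treated TMX-null liver. Further partners, regulators and receptors were named for their role, after their values were seen. The genes and lists were chosen with earlier results of these data known. Upstream sequences are the 250 bases before the first start site listed per gene, aligned with Biopython 1.88. Calculations used Python 3.11.15 and pandas 2.3.3 and were tested on simulated data. Without channel intensities, weakly and strongly expressed genes look alike in these ratios, and precision is limited by having 1 array per group.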

Additional observations from a re-analysis of the deposited data

Results flagged for a closer look

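Cyp2d10 moved in opposite directions in the livers of the 2 genotypes. Its ratio of treated to untreated liver was 1.36 in wild-type and -1.35 in TMX-null mice, a difference of -2.70 on the log2 scale. It was past 2-fold in both, by margins below the SD of a single probe (0.42 and 0.67 in the same order). Cyp2j9, at 1.01 and -0.98, missed this threshold by far less than that SD. The difference was not tested, because each group had 1 array. Cyp2d10 lies in a cluster of close copies, and a single row measured it.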

How the results depend on the processing

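No paired analysis was possible because each group had 1 array. Without replicates no alternative leaves out a sample. Alternatives were set against the counts of 2-fold lower and higher P450 genes and, except for other fold thresholds, the medians in 6 comparisons. Replacing the reference applies to treated wild-type liver alone. Shares of all named genes were not counted at 1.5-fold, at 3-fold or as natural logarithms, so the counts there stand without them. Averaging rows or updating symbols moved none of these beyond 1.5 times or the SD of a single probe. For treated wild-type liver (3 lower, 3 higher), 5 were lower with equal spreads, 6 as natural logarithms, 7 at 1.5-fold and 0 at 3-fold, where 0 were higher. Against untreated TMX-null liver 0 were lower. For untreated TMX-null liver (0 lower, 2 higher), 1 was lower with equal spreads and as natural logarithms, and 2 at 1.5-fold, while 0 were higher at 3-fold and 1 among genes on all 3 arrays. For treated TMX-null against untreated wild-type liver (1 higher, Cyp4f18), 0 were higher without re-centring, with equal spreads and at 3-fold, and 2 as natural logarithms and at 1.5-fold. Its median was -2.61 as natural logarithms. For the TMX-null response (median -1.71), the median was -1.04 with equal spreads and -2.47 as natural logarithms, and 2 genes were higher at 1.5-fold. Between treated livers (31 lower, 1 higher), 16 were lower with equal spreads and 17 at 3-fold, 0 were higher under both, and 2 were higher as natural logarithms and at 1.5-fold. The medians were -0.82 with equal spreads and -2.18 as natural logarithms. For the difference of responses (27 lower), 16 were lower with equal spreads. The median there was -0.73 with equal spreads and -2.30 as natural logarithms, and 2 genes were higher as natural logarithms and at 1.5-fold.

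Leaving out genes with 90% protein identity was not run, since no protein table was at hand. In its place, chosen after seeing the data, the subfamilies Cyp2b, Cyp2c, Cyp2d and Cyp3a were left out. These held 2, 9, 5 and 5 of the 41 genes with a value in treated wild-type liver. They held 2, 8, 5 and 5 of the 41 in treated TMX-null liver and of the 40 in the comparisons of arrays. The percentages below are shares of all named genes and not of the P450 genes left. Then 1 gene was lower (1.65% of all named genes) and 1 higher (6.8%) in treated wild-type liver. In treated TMX-null liver against the reference 10 genes were lower (11.7%), with a median of -0.77. The lower genes were 12 in the TMX-null response (12.0%), 11 between treated livers (10.4%) and 10 in the difference of responses (11.6%). The medians of these 3 comparisons were -1.27, -1.18 and -0.99. These counts are smaller in part because fewer genes were counted. No median changed sign under any alternative run.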
